A study of Mus musculus with 13 samples.

Results

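The glycolytic enzymes described here are 10 mouse genes, *Hk2*, *Gpi1*, *Pfkp*, *Pfkl*, *Aldoa*, *Aldoc*, *Pgk1*, *Pkm*, *Ldha* and *Pfkfb3*. They were chosen by name, as enzymes of glycolysis and of its control, and not ranked by a measured value, but with earlier results of these data known. All 10 were among the 13222 genes of the table, and all 10 passed the filter on low values that left 12319 genes for testing. The study sequenced bulk RNA from 4T1-Thy1.1 cells, a mouse triple negative mammary carcinoma line from BALB/c mice that carries a Thy1.1 transgene, to ask how IL-17A alters the response to doxorubicin (DOX). DOX is an anthracycline that intercalates into DNA and poisons topoisomerase II, and IL-17A is a proinflammatory cytokine. Cells of all groups carried the transgene and were collected at 48 hours. The labels of the libraries give DMEM/F12 with FBS as the medium, whereas the general culture methods of the paper name RPMI with FBS. Control cells received neither agent (n = 3), DOX cells received DOX at 200 ng/mL (n = 4), DOX+IL-17A cells received DOX at 200 ng/mL with recombinant mouse IL-17A at 25 ng/mL (n = 3), and IL-17A cells received IL-17A at 25 ng/mL (n = 3). Control libraries are numbered 1, 3 and 5, DOX libraries 1 to 4, and the libraries of both IL-17A groups 2, 3 and 5, and values are given in that order.

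Libraries held the 3′ ends of polyadenylated transcripts, so that a gene's value does not scale with the length of its transcript. Values are the authors' TMM-normalized signal, in which reads are divided by a library size corrected for RNA composition. Reads on listed genes ranged from 4445592 to 16930600 per library, and 3 reads, taken as the smallest detectable amount, were worth 0.183 to 0.613 units. This limit covers counting error only. The 10 enzymes had at least 12 reads in each library, the lowest being *Aldoc* in a DOX library. The paper speaks of biological replicates in general, but neither it nor the labels say whether the libraries of a group came from separate cultures, so the p-values measure only the spread between these libraries, which may be technical. All 8 epithelial marker genes were above 0 in all 13 libraries, with *Krt7* the most abundant. Their summed signal was 1789 to 2395 in the 6 libraries without DOX and 927 to 1191 in the 7 with DOX. In DOX against control 2 of the 8, *Krt19* and *Epcam*, were called down by the test described below, against 6.18% of all tested genes. In that comparison 7 of the 8 had a log2 fold change below 0 and 1 above, with a median of -0.78. By the same test 6 were at an adjusted p under 0.05. *Krt19* had a mean of 199 in control and 44.3 in DOX libraries and *Cldn7* 70.9 and 52.5. *Krt14*, the 1 above 0, had 41.1 and 81.9. Values are relative to the other genes of a library, so the number of cells and the total RNA per cell cannot be read from them. The cause of the lower sum was not tested.

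Control replicate 1 and DOX replicate 1 stood apart from the other libraries, and IL-17A replicate 5 and DOX+IL-17A replicate 5 from their groups. Control replicate 1 lay at 74.7 on the second principal component of all tested genes, against -39.4 and -24.2 for the other control libraries. On the same component IL-17A replicate 5 lay at 1.08, against -33.3 and -42.9 for the other IL-17A libraries. DOX+IL-17A replicate 5 lay at 23.4, against 10.4 and 10.6 for the other DOX+IL-17A libraries. DOX replicate 1 had a summed signal of 327 for 12 listed muscle genes, led by *Myh4* at 80.9, against 10.2 to 53.0 elsewhere, and 66.5 for 3 listed red blood cell genes, led by *Hba-a2* at 43.4, against 0 to 14.4 elsewhere. None of these 15 genes was at 0 in DOX replicate 1. Summed fibroblast genes were at 143 in control replicate 1 and 27.9 to 78.1 elsewhere. Summed immune genes were at 18.1 to 36.2 in control, 42.1 to 65.1 in DOX, 15.9 to 40.3 in DOX+IL-17A and 6.65 to 19.0 in IL-17A libraries. Without DOX replicate 1, DOX against control still called 8 of the 10 glycolytic genes down and 1 up. Without control replicate 1 it called 8 down and 0 up, as *Pfkfb3* was no longer called.

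Glycolysis converts glucose to pyruvate, with a net yield of ATP and NADH, and lactate dehydrogenase then regenerates NAD+ by reducing pyruvate to lactate. The steps catalysed by hexokinase, phosphofructokinase and pyruvate kinase are the ones that are in effect irreversible, and most steps are served by several isozymes from separate genes. Carcinoma cells often convert much of their glucose to lactate even with oxygen present, and many genes of the pathway are known targets of the transcription factors HIF-1 and MYC.

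Differences were tested with limma on log2(value + 1) over all tested genes, and a gene was called at an adjusted p under 0.05 with a fold change above 2. In DOX against control, 8 of the 10 genes fell, against 6.18% of all tested genes called down. A single gene, *Pfkfb3*, rose, against 9.15% called up, so that 1 of 10 up is near the overall share. In DOX+IL-17A against control, 8 of the 10 fell, against 5.95% of tested genes, and 0 rose, against 6.95%. DOX+IL-17A against IL-17A gave 8 of 10 down, against 4.92% of tested genes, and 0 up, against 4.92%. These last shares, of 606 genes each, depended on single libraries: with 1 library left out the counts ran from 295 up, without IL-17A replicate 3, and 378 down, without IL-17A replicate 5, to 813 and 776 without control replicate 1. Each time 8 of the 10 genes were down. The first 2 of these comparisons share the control libraries, and the last 2 share the DOX+IL-17A libraries, so they are not independent of each other. Median log2 fold changes of the 10 genes were -1.78, -1.71 and -1.71 in the 3 comparisons, beside 0.09, 0.04 and 0.02 for all tested genes. For the counts of 0 up, edgeR, voom with limma and DESeq2 also gave 0 in both comparisons. In DOX+IL-17A against control 1 gene, *Pfkfb3*, was up with scaling by library size alone. The same held without control replicate 3 and without DOX+IL-17A replicate 3. At an unadjusted p under 0.05 limma gave 9 of the 10 genes, either direction, in each, beside 4006 and 3515 of all 12319 tested genes.

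**Figure D1:**
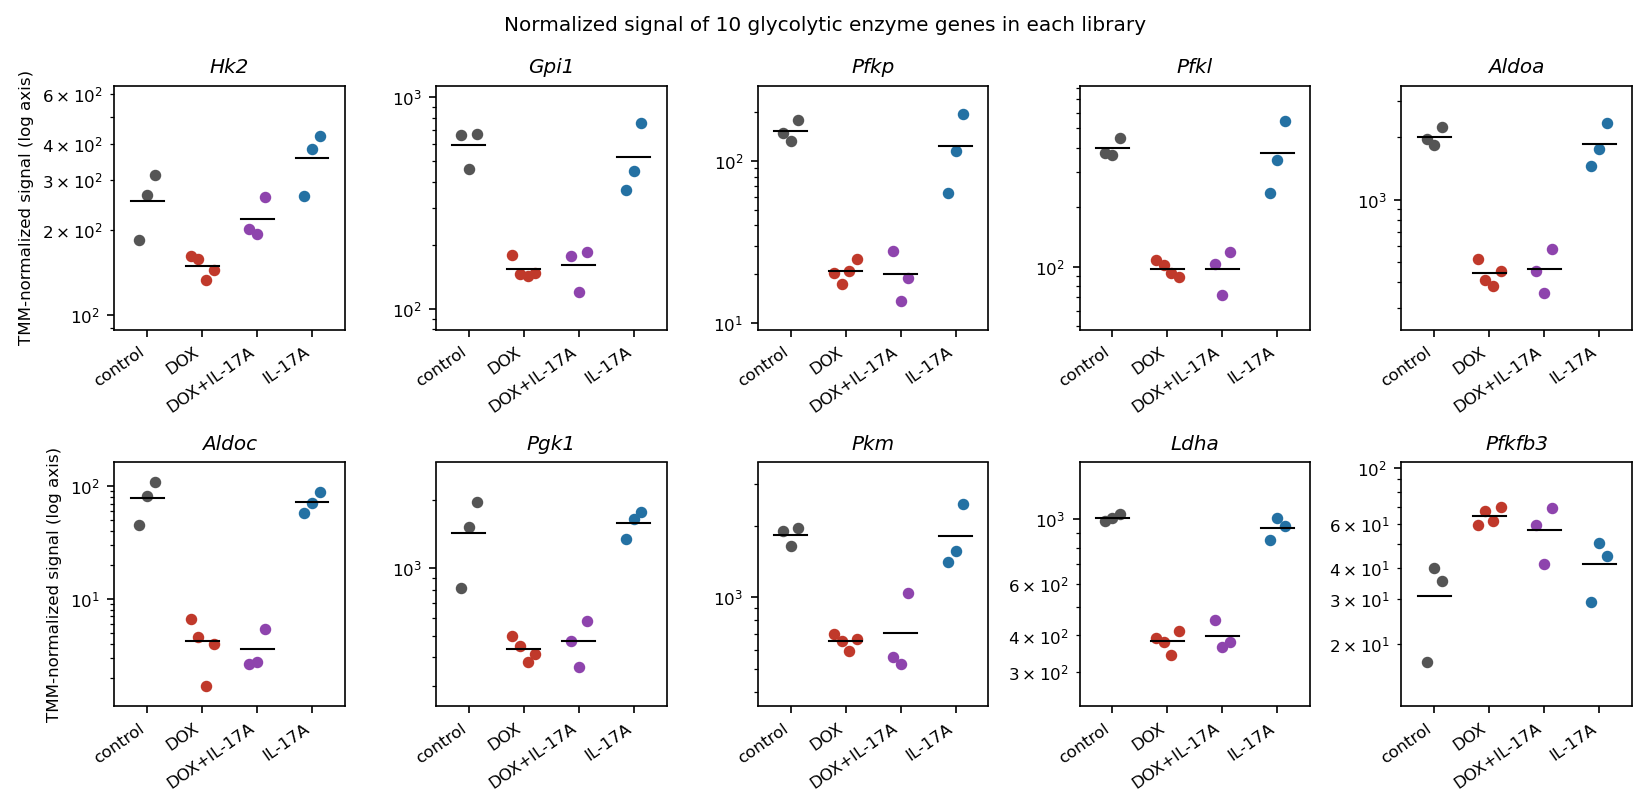
TMM-normalized signal (log axis) of the 10 genes in each of the 13 libraries, with a point per library and a bar at the group mean, n = 3, 4, 3 and 3. For 8 genes the 7 libraries with DOX lie below the 6 without it, and *Pfkfb3* in DOX libraries (59.1 to 70.0) lies above control libraries (16.9 to 40.1).

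*Hk2* codes for hexokinase 2, which phosphorylates glucose on entry to the cell (chr6:82725025-82774454, minus strand, mm10). Its signal was 185, 264 and 312 in control libraries, 162, 158, 134 and 145 with DOX, 201, 194 and 261 in DOX+IL-17A libraries, and 264, 385 and 428 with IL-17A. All 4 DOX libraries lay below the control libraries, whereas DOX+IL-17A libraries overlapped them. *Hk2* had a log2 fold change of -0.73 (SE 0.22, adjusted p = 0.0267 by limma) in DOX against control, a fold under 2, so it was not called. With 1 library left out its adjusted p ran from 0.00413 to 0.123, and with the replicate block the change was -0.55 (adjusted p = 0.109 by limma). The change was -0.19 (SE 0.23, adjusted p = 0.598 by limma) in DOX+IL-17A against control and -0.70 (SE 0.23, adjusted p = 0.0605 by limma) in DOX+IL-17A against IL-17A. Blocking on the replicate number gave an adjusted p of 0.0391 for the last value, with the fold still under 2.

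*Gpi1* codes for glucose-6-phosphate isomerase, which forms fructose-6-phosphate (chr7:34201330-34230336, minus strand). Its signal was 662, 457 and 673 in control libraries, 180, 147, 144 and 148 with DOX, 178, 120 and 186 in DOX+IL-17A libraries, and 366, 451 and 754 with IL-17A. The lowest library without DOX was about 2 times the highest with it. *Gpi1* fell by 1.93 on the log2 scale in DOX against control (SE 0.25, adjusted p = 0.00014 by limma), by 3.87-fold of the group means. Its changes were -1.89 in DOX+IL-17A against control and -1.65 in DOX+IL-17A against IL-17A. Of the 75-base windows at the 3′ ends of its transcripts 15.7% also occur in the predicted gene *Gm1840*, which is not listed in the table, so a share of its reads could belong to either.

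Phosphofructokinase, the committing step, is coded by *Pfkl* (liver type), *Pfkp* (platelet type) and *Pfkm* (muscle type). *Pfkp* (chr13:6579768-6648777, minus strand) had a signal of 149, 134 and 179 in control libraries, 20.2, 17.3, 21.0 and 24.9 with DOX, 27.8, 13.6 and 18.8 in DOX+IL-17A libraries, and 63.8, 115 and 194 with IL-17A. The lowest library without DOX, IL-17A replicate 2, was still above all 7 libraries with DOX. *Pfkp* fell by 2.83 on the log2 scale in DOX against control (SE 0.32, adjusted p = 4.51e-05 by limma), and its changes were -2.92 in DOX+IL-17A against control and -2.49 in DOX+IL-17A against IL-17A. *Pfkl* (chr10:77986947-78010083, minus strand) had a signal of 376, 366 and 447 in control libraries, 108, 102, 93.0 and 88.4 with DOX, 103, 72.1 and 119 in DOX+IL-17A libraries, and 236, 345 and 545 with IL-17A. Again all libraries with DOX were below those without it. *Pfkl* fell by 2.01 on the log2 scale in DOX against control (SE 0.25, adjusted p = 0.000106 by limma), with -2.03 in DOX+IL-17A against control and -1.88 in DOX+IL-17A against IL-17A. *Pfkm*, the least abundant of the 3, had a mean signal of 14.4 in control and 13.6 in DOX libraries and was not called (log2 fold change 0.04, SE 0.39, adjusted p = 0.957 by limma).

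The promoter windows of 4 genes are shown because 8 genes were called down in DOX against control while *Pfkfb3* was called up. That 1 gene up is near the overall share, and its call was lost without control replicate 1. A further reason is that the pathway is a textbook target of factors that bind short known motifs. RefSeq windows (GRCm38.p6, 250 bases before to 50 after each transcript start) were found for 10 of the 10 genes, 16 windows in all. Searched on both strands were ACGTG and GCGTG, the core letters bound by HIF-1, and CACGTG, the E-box letters bound by MYC and MAX, which contain ACGTG on each strand. Capitals mark every match, and a motif on the other strand reads CACGT or CACGC. The window of *Pfkp* (chr13:6648722-6649021, minus strand) held 4 matches to GCGTG and none to the other motifs.
Pfkp: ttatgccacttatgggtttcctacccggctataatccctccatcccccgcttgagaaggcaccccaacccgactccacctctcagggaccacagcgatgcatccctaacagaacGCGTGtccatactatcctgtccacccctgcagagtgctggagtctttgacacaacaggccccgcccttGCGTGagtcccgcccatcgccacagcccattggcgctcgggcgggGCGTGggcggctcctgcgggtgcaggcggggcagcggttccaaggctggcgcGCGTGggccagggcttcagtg

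Aldolase splits fructose-1,6-bisphosphate into the 3-carbon sugars. *Aldoa*, the main isozyme in most cells, is carried by 2 neighbouring gene models of that name, of which the one at chr7:126795234-126800751, minus strand, holds the enzyme's usual transcripts. Its signal was 1959, 1830 and 2232 in control libraries, 517, 408, 383 and 455 with DOX, 453, 354 and 576 in DOX+IL-17A libraries, and 1458, 1759 and 2356 with IL-17A. It was the most abundant of the 10 genes in control libraries, and the groups with and without DOX did not overlap. *Aldoa* fell by 2.19 on the log2 scale in DOX against control (SE 0.22, adjusted p = 1.71e-05 by limma), with -2.14 in DOX+IL-17A against control and -2.01 in DOX+IL-17A against IL-17A.

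*Aldoc*, the isozyme best known from brain (chr11:78322968-78327781, plus strand), had a signal of 45.2, 81.9 and 108 in control libraries, 6.68, 4.60, 1.68 and 4.02 with DOX, 2.66, 2.78 and 5.37 in DOX+IL-17A libraries, and 57.6, 70.3 and 88.8 with IL-17A. Libraries with DOX were all under 7 units and libraries without it all above 45. In DOX against control *Aldoc* fell by 3.93 on the log2 scale (SE 0.38, adjusted p = 1.35e-05 by limma), the largest change among the 10 genes, and the control mean was 18.5 times the DOX mean. The log2 changes were -4.07 (SE 0.41) in DOX+IL-17A against control and -4.02 (SE 0.41) in DOX+IL-17A against IL-17A. These values are on the log2(value + 1) scale, which understates changes of genes as low as *Aldoc* with DOX. Its upstream RefSeq window (chr11:78322823-78323122, plus strand, GRCm38.p6) held 2 matches to GCGTG and 1 to ACGTG, shown in capitals.
Aldoc: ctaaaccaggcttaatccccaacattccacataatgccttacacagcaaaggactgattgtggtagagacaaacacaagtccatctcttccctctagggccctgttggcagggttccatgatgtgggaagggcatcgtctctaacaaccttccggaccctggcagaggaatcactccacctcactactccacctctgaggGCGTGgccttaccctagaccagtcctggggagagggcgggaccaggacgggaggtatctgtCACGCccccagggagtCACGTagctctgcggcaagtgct

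*Pgk1* codes for phosphoglycerate kinase 1, which makes ATP from 1,3-bisphosphoglycerate (chrX:106187100-106203699, plus strand). Its signal was 813, 1515 and 1952 in control libraries, 499, 449, 383 and 412 with DOX, 475, 364 and 580 in DOX+IL-17A libraries, and 1347, 1638 and 1771 with IL-17A. Control replicate 1 was low for its group but above all libraries with DOX. *Pgk1* fell by 1.63 on the log2 scale in DOX against control (SE 0.26, adjusted p = 0.000743 by limma), with -1.53 in DOX+IL-17A against control and -1.76 in DOX+IL-17A against IL-17A. *Pkm* codes for the muscle-type pyruvate kinases, which make ATP and pyruvate (chr9:59656368-59679375, plus strand). Its signal was 1904, 1640 and 1953 in control libraries, 700, 652, 596 and 668 with DOX, 560, 522 and 1040 in DOX+IL-17A libraries, and 1406, 1560 and 2455 with IL-17A. DOX+IL-17A replicate 5 was the highest library with DOX and still below the lowest without it. *Pkm* fell by 1.48 on the log2 scale in DOX against control (SE 0.25, adjusted p = 0.000976 by limma), with -1.44 in DOX+IL-17A against control and -1.38 in DOX+IL-17A against IL-17A. Values per gene do not separate the PKM1 and PKM2 splice forms.

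*Ldha* codes for the lactate dehydrogenase subunit that favours reduction of pyruvate to lactate (chr7:46841475-46855627, plus strand). Its signal was 988, 1010 and 1043 in control libraries, 391, 380, 343 and 415 with DOX, 451, 366 and 379 in DOX+IL-17A libraries, and 847, 1010 and 945 with IL-17A. Its values were close together within each group, and the groups with and without DOX were far apart. *Ldha* fell by 1.41 on the log2 scale in DOX against control (SE 0.16, adjusted p = 5.99e-05 by limma), with -1.35 in DOX+IL-17A against control and -1.23 in DOX+IL-17A against IL-17A. The window at the transcript start at chr7:46845554-46845853 (plus strand, GRCm38.p6, RefSeq) held 2 matches to CACGTG, which account for 4 of its 5 matches to ACGTG, and 2 to GCGTG. It is shown, with matches in capitals, as the window with the most matches among the 16.
Ldha: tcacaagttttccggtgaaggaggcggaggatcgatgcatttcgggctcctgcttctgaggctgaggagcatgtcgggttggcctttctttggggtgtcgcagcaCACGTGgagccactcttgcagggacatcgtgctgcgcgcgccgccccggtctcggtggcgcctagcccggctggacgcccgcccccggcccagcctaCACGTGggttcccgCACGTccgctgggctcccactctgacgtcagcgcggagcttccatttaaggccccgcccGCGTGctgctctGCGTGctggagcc

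*Pfkfb3* codes for a bifunctional enzyme that mainly makes fructose-2,6-bisphosphate, an allosteric activator of phosphofructokinase (chr2:11471433-11554077, minus strand). Its signal was 16.9, 40.1 and 35.6 in control libraries, 59.1, 67.2, 61.7 and 70.0 with DOX, 59.3, 41.5 and 69.3 in DOX+IL-17A libraries, and 29.2, 50.2 and 44.6 with IL-17A. DOX libraries were above all control and IL-17A libraries, whereas DOX+IL-17A replicate 3 lay within the IL-17A range. *Pfkfb3* rose by 1.13 on the log2 scale in DOX against control (SE 0.29, adjusted p = 0.0126 by limma). Without control replicate 1, in which it was lowest, the change was 0.75 (adjusted p = 0.0381 by limma), a fold under 2, and it was no longer called. In DOX+IL-17A against control the change was 0.91 (SE 0.31, adjusted p = 0.0526 by limma), not called. It was called with scaling by library size alone (1.09, adjusted p = 0.0272 by limma), without control replicate 3 (1.14, adjusted p = 0.0284) and without DOX+IL-17A replicate 3 (1.12, adjusted p = 0.0484). DOX+IL-17A against IL-17A gave 0.45 (SE 0.31, adjusted p = 0.364 by limma). The RefSeq window of *Pfkfb3* at chr2:11502041-11502340 (minus strand, GRCm38.p6) held 1 match to CACGTG, which is also its 2 matches to ACGTG, and 2 to GCGTG. It is shown, in the same form, for the gene that differed in direction.
Pfkfb3: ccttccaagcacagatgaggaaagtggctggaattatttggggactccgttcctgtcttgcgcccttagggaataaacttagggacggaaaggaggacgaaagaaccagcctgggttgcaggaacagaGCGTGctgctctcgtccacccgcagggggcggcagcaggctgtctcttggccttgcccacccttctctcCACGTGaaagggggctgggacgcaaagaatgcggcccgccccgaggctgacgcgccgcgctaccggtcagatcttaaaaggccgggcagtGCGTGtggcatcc

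ACGTG was found in 9 of the 16 windows of the 10 genes (56.2%), against 19.6% of all 32851 mouse windows and 25.0% of windows of genes in the table. GCGTG was found in 7 (43.8%), against 32.4% and 49.6%, and CACGTG in 2 (12.5%), against 7.15% and 9.73%. In 19 windows of the hypoxia-responsive genes described below the shares were 52.6% for ACGTG, 68.4% for GCGTG and 10.5% for CACGTG. Windows of the same gene can overlap, as those of *Aldoa* do. *Gpi1* was the gene without a match to any of these letters. These matches describe the letters of the windows, and binding was not analysed here.

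**Figure D2:**
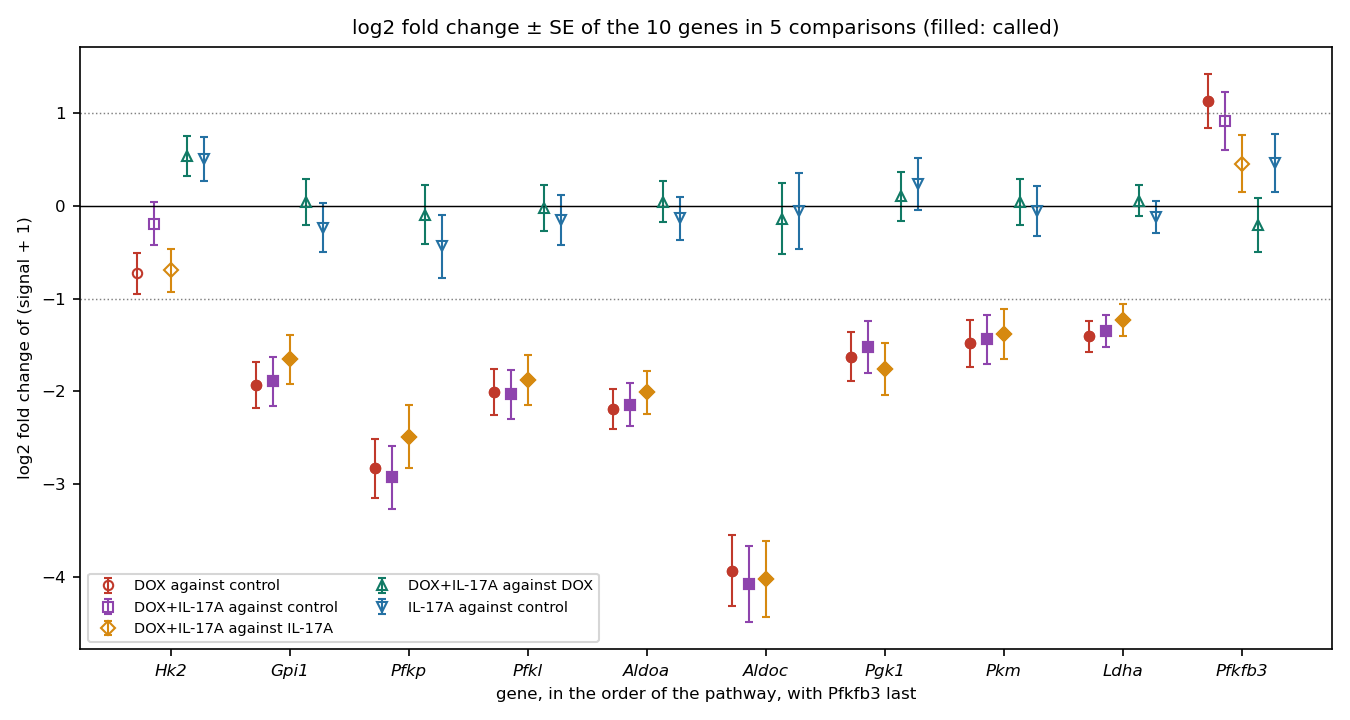
Log2 fold change of (signal + 1) by limma, with SE bars, for the 10 genes in pathway order with *Pfkfb3* last, in 5 comparisons. Filled symbols mark called genes and dotted lines a fold of 2. For the 8 genes called down the 3 comparisons with DOX lie between -4.07 and -1.23, and *Pfkfb3* is called up at 1.13 in DOX against control.

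The 10 genes together took 0.736% ± 0.113 (SD, n = 3) of the signal of listed genes in control libraries, 0.256% ± 0.0185 (SD, n = 4) with DOX, 0.275% ± 0.0467 (SD, n = 3) with DOX+IL-17A and 0.701% ± 0.153 (SD, n = 3) with IL-17A. Shares of 0.227% to 0.321% with DOX and 0.543% to 0.859% without it did not overlap. Scaling by library size alone, without TMM factors, raised the median of all tested genes by 0.15, 0.15 and 0.19 in the 3 comparisons with DOX. It moved the share of calls that were up from 59.7% to 75.7% in DOX against control, from 53.9% to 70.4% in DOX+IL-17A against control and from 50% to 72.8% in DOX+IL-17A against IL-17A. Relative to the all-gene median, the 10 genes had medians of -1.84, -1.73 and -1.70 under that scaling, beside -1.87, -1.75 and -1.73 with TMM. The same 8 genes were called down in each of these 3 comparisons under the other scaling and under every other alternative tried.

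IL-17A called 0 of the 10 genes in either setting. In DOX+IL-17A against DOX limma called 0, against 0.438% of all tested genes, and voom with limma, edgeR and DESeq2 also called 0. At an unadjusted p under 0.05 limma gave 1 of the 10 genes, beside 782 of all 12319 tested genes. The number of all tested genes called, 54, was 88 without control replicate 1, 15 and 7 without DOX replicate 3 and 4, 23, 1 and 4 without DOX+IL-17A replicate 2, 3 and 5, and 35 and 32 without IL-17A replicate 2 and 3, with 0 of the 10 enzymes each time. The gene at an unadjusted p under 0.05 was *Hk2*, at 0.53 (SE 0.22, adjusted p = 0.667 by limma), with 3 of 3 DOX+IL-17A libraries above the 4 DOX libraries. In IL-17A against control limma called 0, against 0.00812% of tested genes, again with *Hk2* at an unadjusted p under 0.05 (0.50, SE 0.23, adjusted p = 0.959 by limma). Of all 12319 tested genes 380 were at that unadjusted p. The other 3 tools called 0 of the 10, and over all tested genes DESeq2 called 13. For the interaction, which asks if DOX alters the IL-17A effect, limma gave 0 of 10 at an adjusted p under 0.05, against 0% of tested genes. At an unadjusted p under 0.05 it gave 0 of 10, beside 556 of all 12319 tested genes. The other 3 tools called 0 of the 10, and over all tested genes DESeq2 called 18. Median log2 changes of the 10 genes were 0.04 and -0.09 in the pair of IL-17A comparisons. The largest interaction value was that of *Pfkfb3*, at -0.67 (SE 0.42, adjusted p = 0.901 by limma).

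Shares of isozymes within a library do not depend on scaling. They were compared by exact permutation tests, 2-sided, with labels of each agent permuted within levels of the other (700 relabelings, smallest possible p 0.00143) and p-values adjusted over 12 tests. *Pfkp* made up 28.1%, 25.7% and 27.8% of phosphofructokinase signal in control libraries, 13.8%, 12.9%, 17.03% and 19.9% with DOX, 20.2%, 14.2% and 12.7% in DOX+IL-17A libraries, and 20.2%, 23.9% and 25.9% with IL-17A. The share was lower with DOX by a mean difference of -9.48 points (exact permutation adjusted p = 0.00857), and a single pair of libraries, DOX+IL-17A replicate 2 and IL-17A replicate 2, met at 20.2%. With IL-17A the *Pfkp* share differed by -2.04 points (exact permutation adjusted p = 0.375), and by -3.17 without DOX+IL-17A replicate 2 to -1.26 without IL-17A replicate 2. *Pfkl* took 70.2% ± 0.751 (SD, n = 3) of the sum in control, 73.9% ± 2.44 (SD, n = 4) in DOX, 76.7% ± 2.79 (SD, n = 3) in DOX+IL-17A and 73.1% ± 1.62 (SD, n = 3) in IL-17A libraries. Its share differed by 3.63 points with DOX (exact permutation adjusted p = 0.024) and by 2.82 points with IL-17A (exact permutation adjusted p = 0.0371). With only the 2 most abundant isozymes, *Pfkl* and *Pfkp*, the DOX value was 8.74 points (exact permutation adjusted p = 0.00476) and the IL-17A value 2.24 points (exact permutation adjusted p = 0.278). With 2 isozymes the *Pfkl* share is what the *Pfkp* share leaves, so this is the *Pfkp* test with the sign reversed and not a separate check. Shares of the same step are not independent of each other with all isozymes either. With all isozymes in the sum, the calls on both *Pfkl* values depended on single libraries. The DOX value of 3.63 points was 3.42 (exact permutation adjusted p = 0.056) without control replicate 5. It was 2.82 (exact permutation adjusted p = 0.06) without DOX+IL-17A replicate 5. The IL-17A value of 2.82 points was 2.02 to 2.98 (exact permutation adjusted p 0.0637 to 0.137) when control replicate 1, 3 or 5, DOX replicate 1 or 4, DOX+IL-17A replicate 5 or IL-17A replicate 2 was left out.

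*Aldoc* made up 2.25%, 4.28% and 4.62% of *Aldoa* plus *Aldoc* in control libraries, 1.28%, 1.11%, 0.436% and 0.876% with DOX, 0.584%, 0.779% and 0.923% in DOX+IL-17A libraries, and 3.80%, 3.84% and 3.63% with IL-17A. All 7 libraries with DOX were below the 6 without it, a difference of -2.90 points (exact permutation adjusted p = 0.00857), beside -0.0639 points with IL-17A (exact permutation adjusted p = 0.913). The sign of the IL-17A value was not stable: it ran from -0.431, without control replicate 1, to 0.162, without control replicate 5. *Hk2* made up 61.4% ± 7.77 (SD, n = 3) of *Hk1* plus *Hk2* in control, 66.3% ± 3.33 (SD, n = 4) in DOX, 76.2% ± 1.19 (SD, n = 3) in DOX+IL-17A and 71.4% ± 4.09 (SD, n = 3) in IL-17A libraries. The share was 9.94 points higher with IL-17A (exact permutation adjusted p = 0.0171), with all DOX+IL-17A libraries above all DOX libraries and an overlap between IL-17A (66.9% to 74.9%) and control libraries (53.0% to 68.3%). The test does not use replicate numbers, and in each of the 3 same-numbered pairs the share was higher in the DOX+IL-17A than in the IL-17A library. With DOX it differed by 4.88 points (exact permutation adjusted p = 0.0931), and without control replicate 3 by 6.61 points (exact permutation adjusted p = 0.02). *Pfkfb3* took 57.7% to 63.9% of the signal of *Pfkfb1* to *Pfkfb4* by group mean, with differences of 1.28 points for DOX (exact permutation adjusted p = 0.814) and 2.14 points for IL-17A (exact permutation adjusted p = 0.741). The sign of the DOX value was not stable: it was -1.19 without control replicate 1, -0.213 without DOX+IL-17A replicate 2, -0.326 without IL-17A replicate 2 and -2.12 with the 2 most abundant isozymes, and at most 3.38, without DOX+IL-17A replicate 3. The IL-17A value ran from -0.332, without control replicate 1, to 4.24 with 1 library left out and was 6.91 with the 2 most abundant isozymes.

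**Figure D3:**
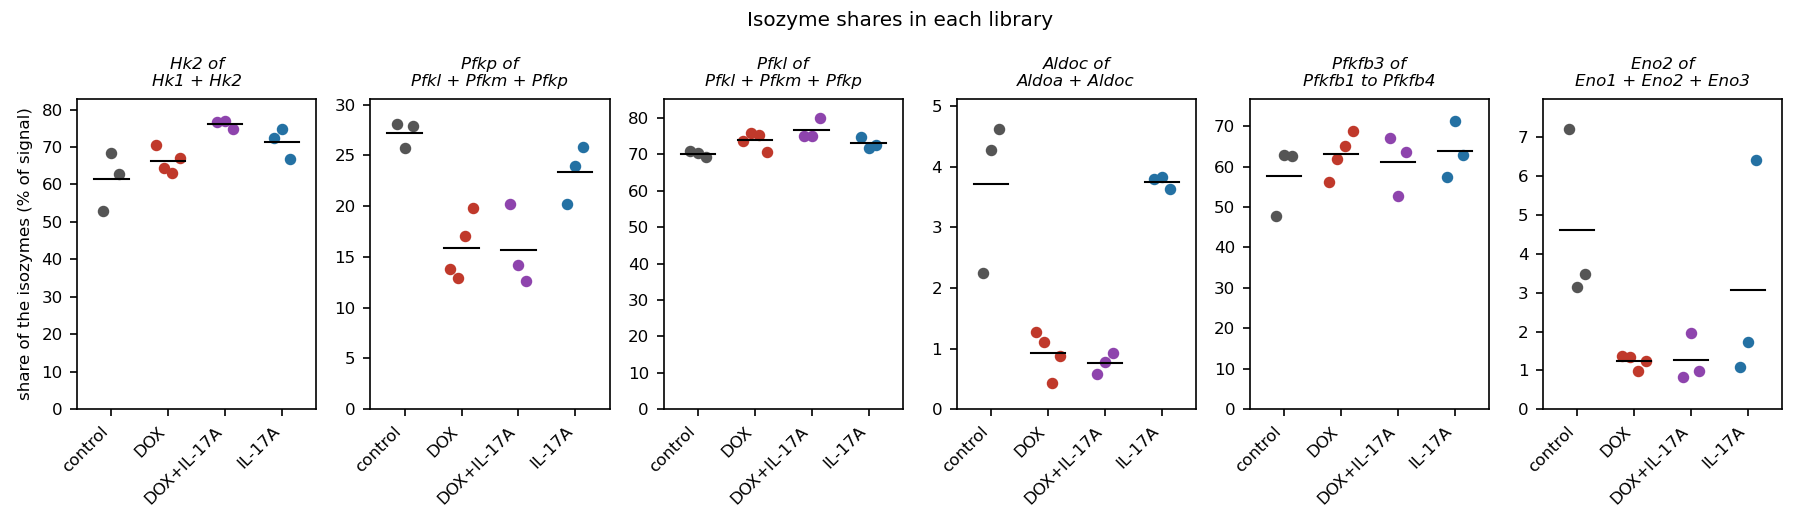
Share of each isozyme in the summed signal of its step (percent, axis from 0) in each library, with a point per library and a bar at the group mean. *Aldoc* shares lie at 0.436% to 1.28% with DOX and 2.25% to 4.62% without it, and *Hk2* shares at 74.8% to 77.0% with DOX+IL-17A, the highest group by mean.

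Of 22 further genes of glycolysis 14 were listed and 12 tested, and 2 were called up and 3 down in DOX against control, 2 up and 3 down in DOX+IL-17A against control, and 0 up and 4 down in DOX+IL-17A against IL-17A. Of all tested genes 9.15%, 6.95% and 4.92% were called up and 6.18%, 5.95% and 4.92% down in these comparisons. *Pgam1*, phosphoglycerate mutase, had a mean of 3391 ± 667 (SD, n = 3) in control and 1257 ± 75.8 (SD, n = 4) in DOX libraries and fell by 1.41 on the log2 scale (SE 0.27, adjusted p = 0.0024 by limma). *Eno2*, the neuronal enolase, fell by 1.66 (SE 0.39, adjusted p = 0.00794 by limma). *Hk1*, the more widely expressed hexokinase, was just past the fold threshold at -1.03 (SE 0.25, adjusted p = 0.00927 by limma), ran from -1.19 to -0.90 with 1 library left out, and was not called without control replicate 1 or 5 or DOX replicate 1 or 4, with the replicate block (-0.79) or under scaling by library size. The 2 genes called up were *Adpgk*, an ADP-dependent glucokinase, at 1.60 (SE 0.50, adjusted p = 0.0312 by limma), and *Bpgm*, which makes 2,3-bisphosphoglycerate, at 1.56 (SE 0.41, adjusted p = 0.0135 by limma). *Adpgk* was not called without control replicate 1 or 5 or DOX replicate 1 or 2 (1.40 to 1.82 with 1 library left out), with the replicate block or by voom with limma, and *Bpgm* ran from 1.03 to 1.95 and stayed called. In DOX+IL-17A against control *Bpgm* was at 1.35 (adjusted p = 0.0427 by limma) and *Minpp1*, an inositol and bisphosphoglycerate phosphatase, at 1.11 (adjusted p = 0.0464 by limma), and both calls were lost under 14 of 22 alternatives. *Tpi1*, triosephosphate isomerase, was at -0.84 (SE 0.30, adjusted p = 0.0553 by limma), and was called without control replicate 1 (-1.14) and with the replicate block (-1.03). *Gapdh* at 0.04 and *Eno1* at -0.36 were not called, but 58.6% and 63.3% of their 3′ windows occur in other genes, so their values are uncertain. Control replicate 1 had the lowest control values of both, 48.4 and 129, and without it the counts in DOX+IL-17A against control were 0 up and 6 down. With each library left out in turn, this list gave 1 to 3 up and 2 to 3 down in DOX against control, 0 to 2 up and 3 to 6 down in DOX+IL-17A against control, and 0 to 1 up and 1 to 6 down in DOX+IL-17A against IL-17A. The lowest of these last counts, 1 down, came without DOX+IL-17A replicate 2 or 3 or IL-17A replicate 3. The *Eno2* share of enolase signal was 4.62% ± 2.26 (SD, n = 3) in control and 1.23% ± 0.168 (SD, n = 4) in DOX libraries, and 1.07%, 1.74% and 6.42% in the IL-17A libraries, 2 of which lie within the range with DOX (0.838% to 1.96%), with a DOX difference of -2.60 points (exact permutation adjusted p = 0.0171). This adjusted p was 0.0686 without DOX+IL-17A replicate 2 (-2.50 points) and 0.0754 without DOX+IL-17A replicate 5 (-2.53 points). The sum is mostly *Eno1*, whose value is uncertain, and *Eno1b* is not in it. With IL-17A the *Eno2* share differed by -0.752 points (exact permutation adjusted p = 0.611), and by -1.59 without IL-17A replicate 5 to -0.1 without control replicate 1.

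**Figure D4:**
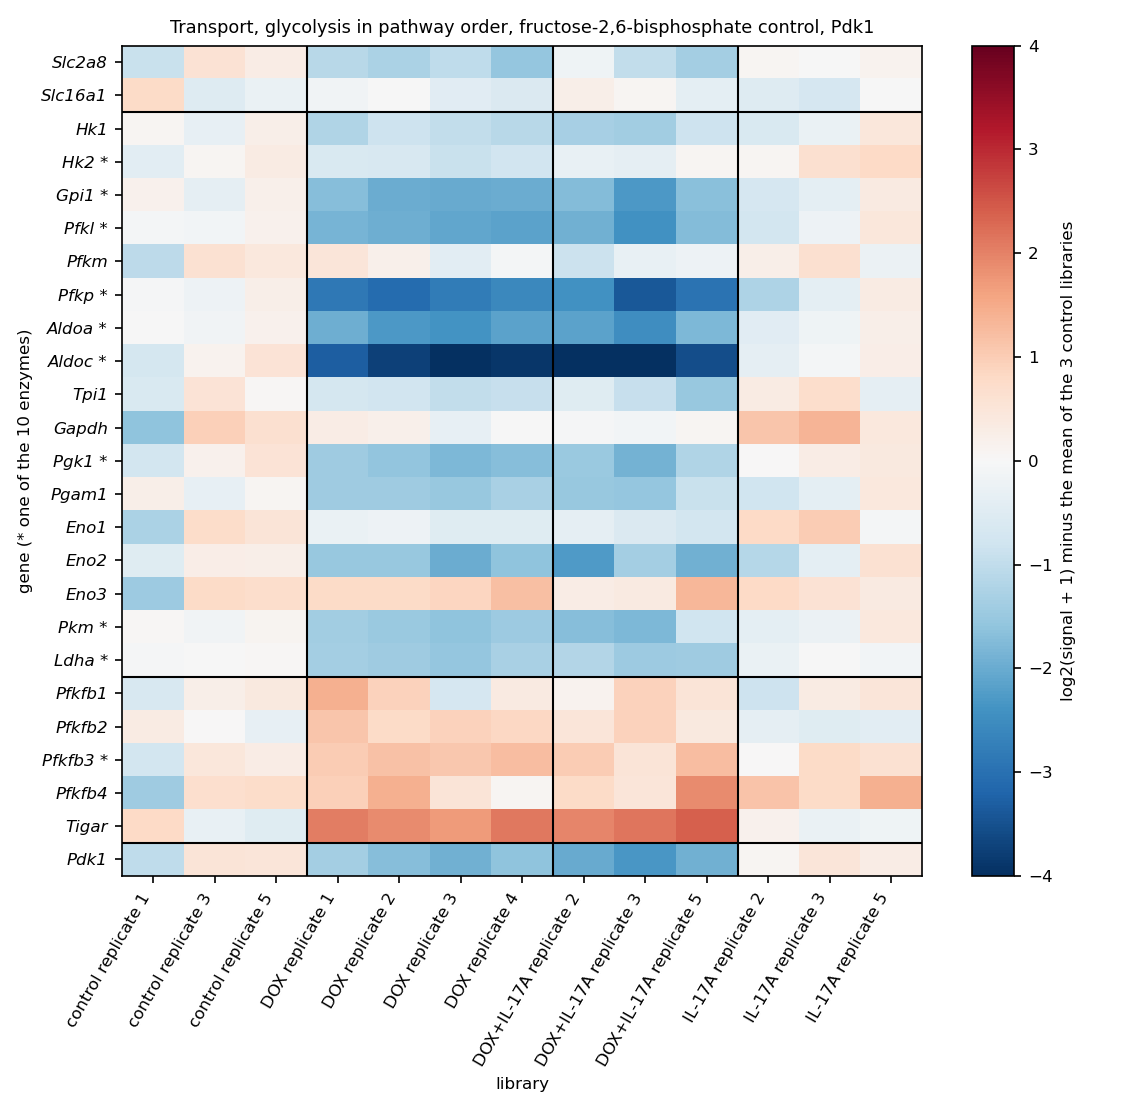
Log2(signal + 1) of transport, glycolysis and regulatory genes in pathway order, minus the mean of the 3 control libraries, in each of the 13 libraries (colour scale from -4 to 4). Genes marked with an asterisk are among the 10. Among the genes drawn, by their mean over the 7 libraries with DOX, *Aldoc* and *Pfkp* are lowest and *Tigar* highest.

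Beside *Pfkfb3*, the genes that set fructose-2,6-bisphosphate gave 1 of 4 up and 0 down in DOX against control, 1 up in DOX+IL-17A against control and 2 up in DOX+IL-17A against IL-17A, beside 9.15%, 6.95% and 4.92% of all tested genes up and 6.18% down in DOX against control. The gene called in all 3 was *Tigar*, a p53-induced phosphatase that lowers fructose-2,6-bisphosphate, with a mean of 8.84 ± 5.11 (SD, n = 3) in control, 34.0 ± 4.41 (SD, n = 4) in DOX, 39.6 ± 6.05 (SD, n = 3) in DOX+IL-17A and 7.66 ± 1.39 (SD, n = 3) in IL-17A libraries. *Tigar* rose by 1.94 (SE 0.30, adjusted p = 0.000627 by limma) in DOX against control, 2.15 in DOX+IL-17A against control and 2.23 in DOX+IL-17A against IL-17A. *Pfkfb2*, a paralog of *Pfkfb3*, was called up in DOX+IL-17A against IL-17A at 1.02 (SE 0.27, adjusted p = 0.0219 by limma), but not without DOX+IL-17A replicate 3 or IL-17A replicate 3 or 5, nor with only the groups compared (0.86 to 1.13 with 1 library left out). In DOX against control it was at 0.91 (adjusted p = 0.0192 by limma), and was called without control replicate 1 (1.07), which made 2 up, and under scaling by library size. Of 5 tested transport genes 0 were up and 1 down in DOX against control, beside 9.15% and 6.18% of all tested genes. The 1 was *Slc2a8* at -1.24 (SE 0.39, adjusted p = 0.033 by limma). Its call was lost without control replicate 3 or 5 or any 1 of the DOX libraries (-1.68 to -0.94 with 1 library left out), with the replicate block, in a fit of only these groups and under scaling by library size. *Slc2a1*, the usual glucose transporter of cultured cells, had a mean of only 2.31 in control libraries and was not called (-0.86, SE 0.45, adjusted p = 0.182 by limma).

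Among pathways that branch from glycolysis, all 10 genes of the pentose phosphate pathway and 3 of gluconeogenesis were tested. For both lists limma called 0 in each of the 3 comparisons with DOX. Of all tested genes 9.15%, 6.95% and 4.92% were called up and 6.18%, 5.95% and 4.92% down, so few calls would be awaited in lists this short. At an unadjusted p under 0.05 in DOX against control there were 3 and 1, beside 4491 of all 12319 tested genes. *Tkt*, transketolase, at -1.16 (SE 0.47, adjusted p = 0.088 by limma) was called down by edgeR and DESeq2 and without control replicate 3 (-1.59), but was at -0.42 without control replicate 1. Without control replicate 1 *G6pdx*, glucose-6-phosphate dehydrogenase, was called at -1.03, and without control replicate 3 *Rpe*, ribulose phosphate epimerase, at 1.09. In DOX+IL-17A against control *Tkt* was called by DESeq2 and without control replicate 3 (-1.63), and *Pck2*, the mitochondrial PEP carboxykinase, at -0.85 with all libraries, without control replicate 1 or DOX+IL-17A replicate 5 (-1.12 in the latter). Of 12 tested genes of pyruvate entry into mitochondria, 1 was up and 2 were down in DOX against control, beside 9.15% and 6.18% of all tested genes. *Pdk1*, a kinase that switches off pyruvate dehydrogenase, fell by 1.64 (SE 0.31, adjusted p = 0.00207 by limma), with -2.10 in DOX+IL-17A against control and -2.38 in DOX+IL-17A against IL-17A. *Pdk2*, a kinase of the same family, at -1.37 (SE 0.46, adjusted p = 0.045 by limma) lost its call under 13 of 22 alternatives, among them the lack of control replicate 1 or 5 or DOX replicate 2, 3 or 4. *Pdhx*, a structural subunit of the complex, was called up at 1.17 (SE 0.34, adjusted p = 0.0248 by limma), but not without control replicate 1 or DOX replicate 1, 2 or 4 (0.84 to 1.38 with 1 library left out) and not with the replicate block. Of 11 tested regulators 2 were up and 1 was down in DOX against control, 3 up and 1 down in DOX+IL-17A against control, and 3 up and 2 down in DOX+IL-17A against IL-17A. Of all tested genes 9.15%, 6.95% and 4.92% were up and 6.18%, 5.95% and 4.92% down, so that 1 of 11 down is near the overall share. Against IL-17A, 1 library left out gave 1 to 4 up and 1 to 3 down, with 1 up without DOX+IL-17A replicate 2 or 3 or IL-17A replicate 3, and against control 1 up without control replicate 3 or DOX+IL-17A replicate 2 or 3 and 4 up without control replicate 1. *Mxi1*, a MAX partner that opposes MYC, fell by 1.59 (SE 0.27, adjusted p = 0.00109 by limma), and *Max* itself rose by 2.15 (SE 0.43, adjusted p = 0.0032 by limma). In DOX+IL-17A against IL-17A *Max* was at 1.05 (SE 0.46, adjusted p = 0.148 by limma) and was called only without IL-17A replicate 2 (1.57). *Trp53*, which codes for p53, was called up at 1.62 (SE 0.40, adjusted p = 0.0101 by limma), though not with the replicate block. Its signal was low, with a mean of 2.40 in control libraries and as few as 9 reads in a library. Activity of p53 was not tested. *Mlxip*, a glucose-sensing transcription factor, was called up in DOX+IL-17A against control at 1.1 (SE 0.31, adjusted p = 0.0253 by limma), but not without control replicate 3 or DOX+IL-17A replicate 2 or 3 (0.89 to 1.39 with 1 library left out), with the replicate block or in a fit of only these groups. *Hif1a* (-0.65, SE 0.31, adjusted p = 0.139 by limma) and *Myc* (0.26, SE 0.59, adjusted p = 0.786 by limma) were not called. Of 17 hypoxia-responsive genes outside glycolysis, 10 were down and 0 up in each of the 3 comparisons with DOX, against 6.18%, 5.95% and 4.92% of all tested genes called down, with medians of -1.42, -1.45 and -1.50, beside -1.78, -1.71 and -1.71 for the 10 glycolytic genes. For 0 up in DOX against control, 12 of the 17 were at an unadjusted p under 0.05 in either direction, beside 4491 of all 12319 tested genes. *Bnip3*, a mitophagy receptor, fell by 2.62 (SE 0.25, adjusted p = 1.25e-05 by limma), *Adm*, adrenomedullin, by 2.86 (SE 0.49, adjusted p = 0.00112 by limma) and *Ero1l*, an endoplasmic reticulum oxidase, by 1.94 (SE 0.24, adjusted p = 9.03e-05 by limma). *Egln3*, a prolyl hydroxylase, fell by 2.09 (SE 0.37, adjusted p = 0.00146 by limma). *Ankrd37*, an ankyrin repeat protein, was at -1.71 (SE 0.53, adjusted p = 0.0305 by limma) and lost its call without control replicate 3 or 5 or DOX replicate 1, 2 or 4, with the replicate block and under scaling by library size. *Ddit4*, an inhibitor of mTORC1 signalling, was at -1.54 (SE 0.40, adjusted p = 0.0133 by limma), ran from -2.28 to -1.11 with 1 library left out and was not called without control replicate 5. The counts of this list depended on single control libraries: without control replicate 1 they were 15, 15 and 13 down, and without control replicate 5 they were 6 and 6 in the 2 comparisons against control. Without IL-17A replicate 3 the count against IL-17A was 6 down.

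**Figure D5:**
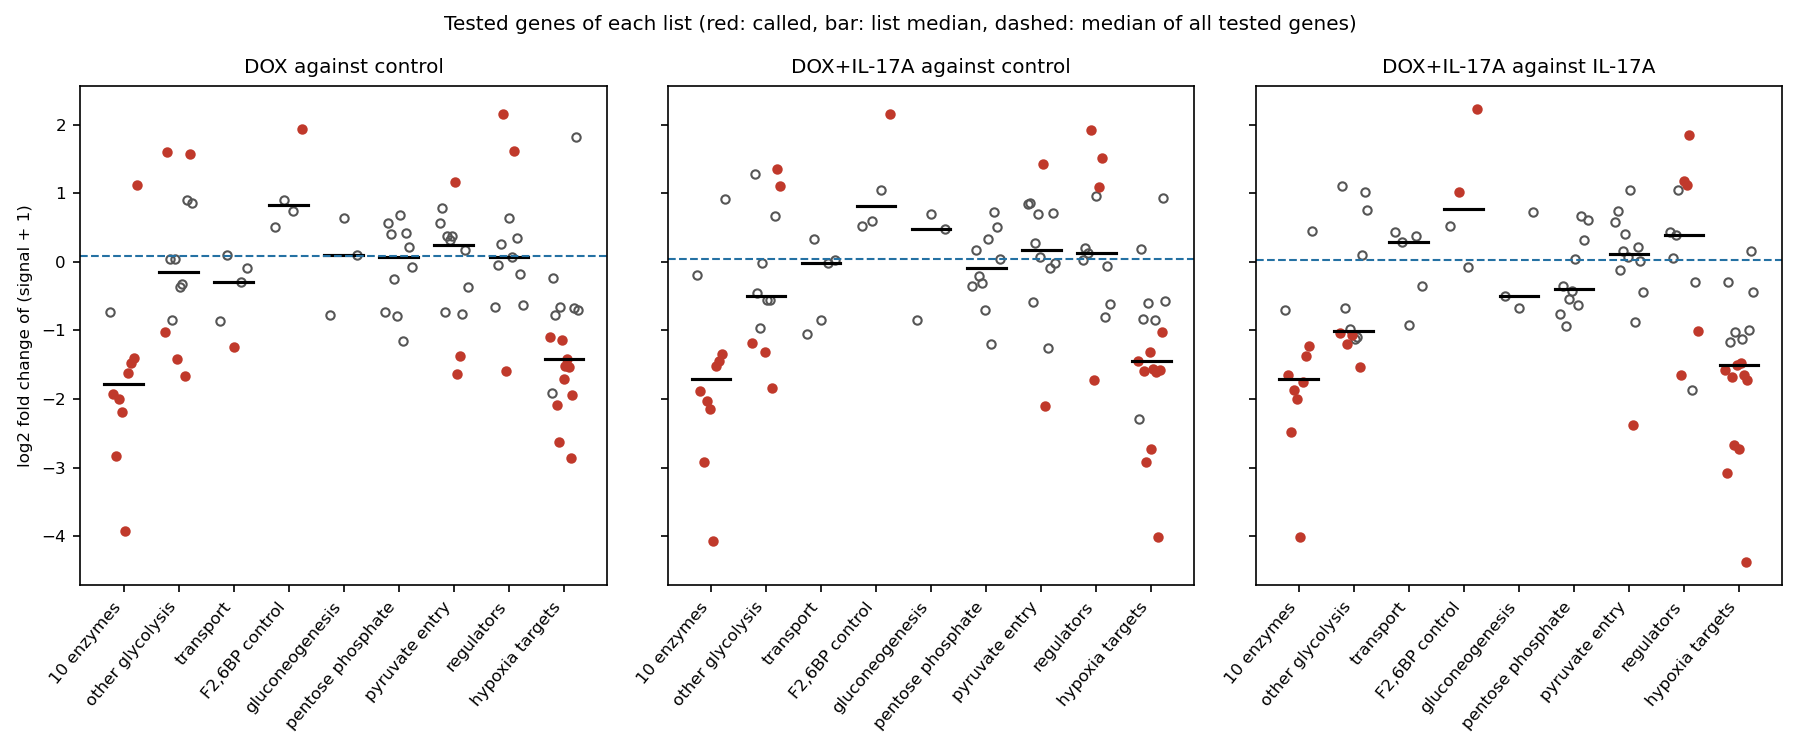
Log2 fold change of (signal + 1) of each tested gene in 9 lists, in the 3 comparisons with DOX, with called genes in red, a bar at each list's median and a dashed line at the median of all tested genes. In DOX against control the 10 enzymes and the hypoxia targets have medians of -1.78 and -1.42, against 0.09 for all genes.

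Over the 13 libraries, the genes whose log2 signal was most like that of *Aldoc*, among 8197 tested genes with a mean of at least 10, were *Aldoa*, *Ptprk*, *Sspn*, *Nfia* and *Magi3*, with Pearson r of 0.984 to 0.981. These values describe mostly the step between libraries with and without DOX. For *Aldoa* r was 0.560 within the 6 libraries without DOX and 0.727 within the 7 with it. *Arhgap6*, *Sspn*, *H1f0*, *Aldoa* and *Ccni* were most like *Ldha* (r 0.982 to 0.976), with *Arhgap6* at 0.0798 without DOX and 0.798 with it. *Entpd3*, *Oip5*, *Zgrf1*, *Mras* and *Zfp707* were most like *Pfkfb3* (r 0.950 to 0.927), with *Entpd3* at 0.949 without DOX and 0.786 with it.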

How the data were processed

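Cells of 13 libraries were sequenced by 3′ mRNA sequencing as single 75-base reads. The authors trimmed the reads with Trimmomatic, aligned them to mm10 with STAR, counted them per gene with featureCounts and deposited a TMM-normalized signal per gene and library. A repeated, identical entry was dropped (13222 genes left), and 17 names stored as dates were kept. Every value is a whole number of reads times a factor per library (100% within 0.01), so reads were recovered for count-based alternatives. On them voom, edgeR and DESeq2 call 1692, 1756 and 2121 genes in DOX against control, beside 1888 in the main test. All value columns were used (0 left out). The main test was limma 3.58.1 with trend on log2(value + 1), with group as the factor, all 13 libraries, 9 residual degrees of freedom and Benjamini-Hochberg adjustment over 12319 genes kept by filterByExpr of edgeR 4.0.16. Calls needed an adjusted p under 0.05 and a fold above 2, or the adjusted p alone for the interaction. Tests were checked on simulated data. Isozyme shares used exact permutation tests.

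Alternatives were voom with limma, edgeR's quasi-likelihood test and DESeq2 1.42.0 on recovered reads, scaling by library size, 2 other filters (none, or 10 reads on average), a smaller pseudocount (0.1), fits restricted to the groups compared, a replicate block, calls by adjusted p without the fold, and fits that lack 1 library. For the genes outside the 10 they were added after the data were seen. The genes and lists were chosen with earlier results of these data known. All 10 genes are named, and from each list up to 6 genes by absolute change among those called against control, or each gene where a list is given gene by gene; *Hif1a*, *Myc*, *Slc2a1*, *Pfkm*, *Tpi1*, *Gapdh* and *Eno1* are named outside that rule, for their known roles, and *Pfkfb2*, *Tkt*, *G6pdx*, *Rpe* and *Pck2* for calls in other comparisons or alternatives, after their values were seen. Likeness was Pearson r with *Aldoc*, *Ldha* and *Pfkfb3*. Same-numbered libraries deviated together in DOX+IL-17A against IL-17A, where all 3 pairs correlated at 0.168 to 0.355. The numbers were taken to pair these libraries by this check alone, which cannot settle it. Over all groups, pairs with different numbers correlated at -0.564 to 0.468, and 13 of 50 were above 0.1. The main test has no block. Windows of 75 bases in the last 500 bases of GENCODE transcripts were searched for copies in other genes. R 4.3.3, python 3.11.15, numpy 2.4.6, pandas 2.3.3, scipy 1.17.1 and matplotlib 3.10.9 were used.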

Additional observations from a re-analysis of the deposited data

Results flagged for a closer look

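*Gpi1* in DOX replicate 1, at 180 units, was far from the other 3 DOX libraries, which held 144 to 148. Its gap to the nearest of them was 0.882 of the range of the group. It was the only value set apart in this way among 17 groups of 4 libraries tested, and chance sets apart about 1 in 20 such groups. *Gpi1* was called down in DOX against control with and without this library.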

How the results depend on the processing

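For the 10 genes together, the number called kept within 1.5 times its main value under every alternative run, and the 8 genes called down in the comparisons with DOX were called down under all 23. Some shares were less firm, and the cause was not tested. With 1 library left out the DOX difference was -10.6 to -8.72 points for *Pfkp* and -3.26 to -2.67 for *Aldoc*. The IL-17A difference of *Hk2* was 7.84 to 11.7 points. In these fits the exact permutation adjusted p of each was at most 0.04. Leaving out 1 library gave the *Hk2* share a DOX difference of 2.78 to 6.61 points, *Pfkl* 2.82 to 4.19 for DOX and 2.02 to 3.25 for IL-17A, *Eno2* -3.10 to -1.76 for DOX and -1.59 to -0.1 for IL-17A, *Pfkp* -3.17 to -1.26 and *Aldoc* -0.431 to 0.162 for IL-17A, and *Pfkfb3* -1.19 to 3.38 for DOX and -0.332 to 4.24 for IL-17A. With the 2 most abundant isozymes alone the IL-17A difference of *Pfkl* was 2.24 points (exact permutation adjusted p = 0.278) and its DOX difference 8.74 (exact permutation adjusted p = 0.00476). These are the *Pfkp* differences with the sign reversed. Over all tested genes, a fit of only the groups compared called 599 in place of 1589 in DOX+IL-17A against control and 87 in place of 54 in DOX+IL-17A against DOX. Without IL-17A replicate 3 or 5 the 1212 called in DOX+IL-17A against IL-17A were 689 or 769. With a pseudocount of 0.1 the count in DOX+IL-17A against DOX was 23, with edgeR 35, with the replicate block 14, with DESeq2 93 and with 1 library left out 1 to 88. Genes of the other lists, in the 3 comparisons with DOX, lost a call in 60, 60 and 51 alternative values and gained one in 18, 31 and 31. The replicate block called 9, 8, 8, 0, 0 and 0 of the 10 genes, as without it, and changed no call of theirs; *Pgk1*, for example, was at -1.45 with the block in DOX against control. Outside DOX+IL-17A against IL-17A, 2 groups share only 2 numbers, and 1 of these 2 pairs correlated above 0.1 each time. Correlations of these same-numbered pairs ran from -0.175 to 0.491, too few to settle whether the numbers pair those libraries. Values of *Aldoc* with DOX rest on as few as 12 reads.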
